A study of Mus musculus with 2 samples.

Results

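The genes described here encode actin, the proteins that hold, cut, cap, branch, bundle and anchor its filaments, and the intermediate filament protein vimentin. They are a list of 39 named genes, and all 39 were found among the 55536 gene rows of the tables by their symbols. The list was not chosen by a threshold on any value.

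The RNA came from whole-cell extracts of macrophages that had been grown in culture from the bone marrow of C57BL/6J mice. There is 1 group, stimulated at 100 ng/mL for 300 min, with 2 polyA RNA-seq libraries that the labels number as biological replicates 1 and 2. The labels name the stimulus both as Lipid A and as lipoprotein A, a protein, so it is called the stimulus here. Both libraries carry the same donor record and separate biosample records, the age and sex of the animals were not collected, and no genetic change is named. An untreated group was not analysed here. The values are therefore levels after the stimulus and differences between libraries, and none is a response to it.

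Actin monomers add to the fast growing, barbed end of a filament and leave from the other end. Thymosins and profilin hold the pool of monomers, cofilin and its partners take old filaments apart, and capping proteins stop growth at barbed ends. The Arp2/3 complex starts a new filament as a branch on an old one when a protein of the WASP or WAVE kind switches it on, and macrophages use such branched networks to crawl, to engulf particles and to build podosomes. In blood cells several of these proteins have forms that most other tissues lack, such as L-plastin, Hem1 and WASP.

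Expected counts, the estimated reads per gene, summed to 38078399 in replicate 1 and 63705317 in replicate 2. The cells carried the macrophage markers: all 9 on a list that includes Lyz2, Cd68 and Csf1r reached 1 TPM (a level that allows for transcript length and has the same total in each library) in both libraries, with a summed level of 16077 and 22432 TPM. Transcripts of other cell types differed between the libraries. The sum over 11 neutrophil markers was 516 TPM (replicate 1) and 26.9 TPM (replicate 2), with 4 of 11 at 1 TPM in both libraries and Ly6g at 0. Of these, Mmp8 had close levels of 8.71 and 8.15 TPM. The sum over 8 platelet markers was 771 and 109 TPM, nearly all of it Pf4, with 3 of 8 at 1 TPM in both. Among 8 muscle markers, Acta1, Actc1, Myh11 and Des were listed at 0 in both libraries. Fibroblast markers summed to 1.93 and 1.06 TPM over 7 genes, and dendritic cell markers to 14.7 and 4.20 TPM over 6. Endothelial markers went the other way, with 27.0 and 81.3 TPM over 5 genes, most of it Kdr. So did T and NK cell markers, with 45.1 and 79.9 TPM over 7 genes, nearly all of it Cd4. In bulk RNA, fewer cells of a type and less RNA per cell cannot be told apart.

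The 39 listed genes, chosen with earlier results of these data known, were among the abundant transcripts of these macrophages. All 39 reached 1 TPM in both libraries, 30 reached 100 TPM in both and 9 reached 1000 TPM in both. Of the 11059 genes at 1 TPM in either library, 10.4% reached 100 TPM and 0.931% reached 1000 TPM in both. The median over the 39 genes was 343 and 334 TPM in replicates 1 and 2 (339 ± 6.58, mean ± SD, n = 2), beside 11.7 and 10.95 TPM over those 11059 genes. The 39 genes together held 3.86% of all TPM in replicate 1 and 3.53% in replicate 2 (3.69% ± 0.235, SD, n = 2). From Actb down to Arpc5l the mean level spanned 511-fold, and the fewest expected counts for any of them in a library were 593. The levels hold for the listed genes and not for their families as a whole. Of 37 paralogues that are not on the list, 11 reached 1 TPM in both libraries and 2 reached 100 TPM in both. Another 10 of them were at 0 in both, and the median of the 37 was 0.13 and 0.08 TPM.

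**Figure D1:**
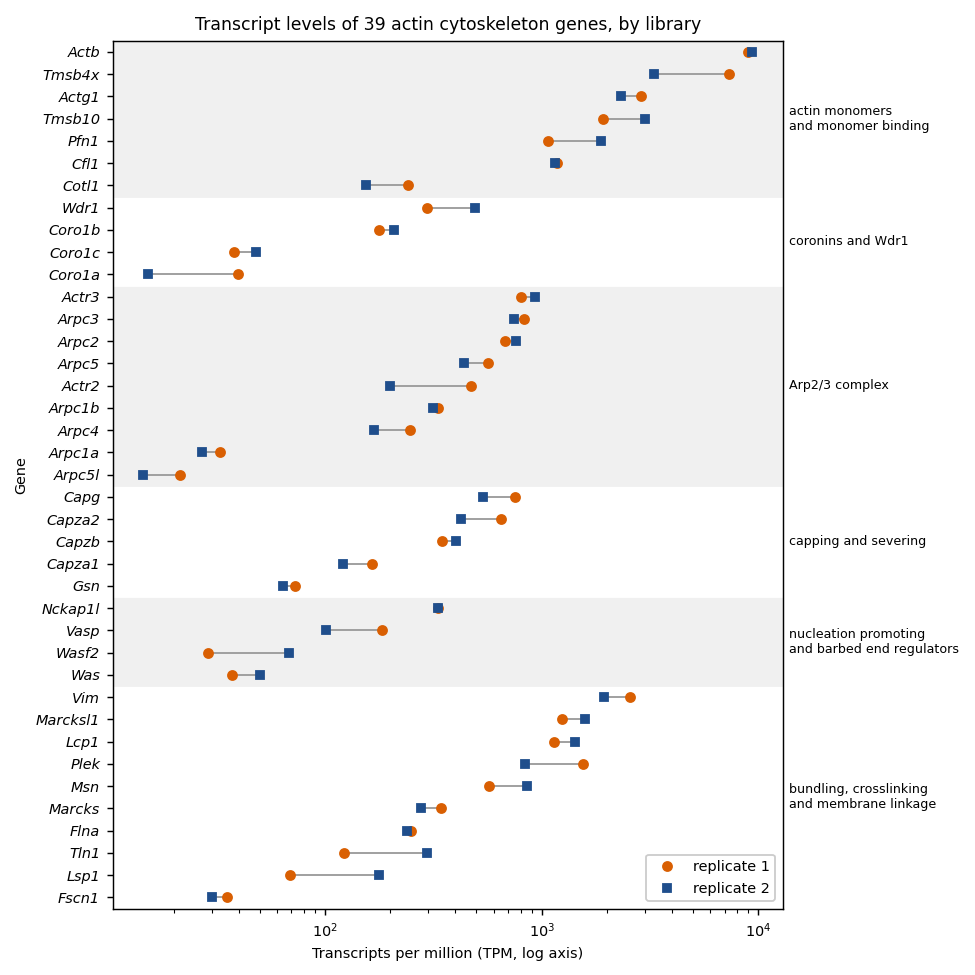
TPM of each gene on a log axis, in replicate 1 (orange circles) and replicate 2 (blue squares), with genes grouped by role; a grey line joins the libraries. Actb lies highest, at 9006 and 9360 TPM, and the widest gaps are those of Coro1a, Lsp1, Tln1, Actr2, Wasf2 and Tmsb4x.

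Actin itself and the proteins that bind its monomers made up most of the total. These 7 genes summed to 23609 and 21149 TPM in replicates 1 and 2, which was 61.2% and 59.97% of the TPM of all 39. Actb, which encodes beta-actin (chr5:142903115-142906754, minus strand, mm10), stood at 9006 TPM in replicate 1 and 9360 TPM in replicate 2 (9183 ± 251, SD, n = 2). It ranked 16 among all genes in replicate 1 and 10 in replicate 2. The 930-base transcript Actb-208 held 1.17% of the gene's TPM in replicate 1 and 14.3% in replicate 2. Those shares came from 0.471% and 6.42% of its counts. At 1 fixed length per gene, set as described below for Tln1, the level of Actb was 9411 and 9084 TPM. Actg1, which encodes the gamma-actin of non-muscle cells (chr11:120345690-120348542, minus strand), stood at 2874 and 2315 TPM (2594 ± 395). Actb thus held 75.8% of the transcripts of this pair in replicate 1 and 80.2% in replicate 2. Transcripts of the muscle actins were at or near 0: Acta2 had 0.26 and 0.38 TPM and Actg2 0.04 and 0 TPM.

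The coding sequences of Actb and Actg1 have the same length, 1128 bases, and match at 88.7% of positions, with 62 bases as the longest identical stretch. Of the 31-base words in the leading Actb transcript, 35.1% occur in transcripts of other genes and 5.61% occur in Actg1. The largest part, 22.7%, occurs in Lrrc58, which held 3004 and 2258 counts. The first 60 coding bases are shown as a stretch in which the pair can be told apart. Capitals mark the 9 positions at which they differ.
Actb: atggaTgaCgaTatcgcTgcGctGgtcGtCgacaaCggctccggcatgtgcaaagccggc
Actg1: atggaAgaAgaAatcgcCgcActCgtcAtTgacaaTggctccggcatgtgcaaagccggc

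The gamma-actin value is limited by reads shared with a gene copy. Of the 31-base words in the leading Actg1 transcript, 57.1% also occur in transcripts of other genes, and 53.6% occur in Gm12715, a processed pseudogene (chr4:103563402-103564529, plus strand, mm10). The 1128 bases of Gm12715 match the coding sequence of Actg1 at 99.6% of positions, with 4 differences in all. The 60 bases from position 805 to 864 of the coding sequence are shown because 3 of those differences fall there, in capitals.
Actg1: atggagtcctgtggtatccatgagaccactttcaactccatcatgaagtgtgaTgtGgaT
Gm12715: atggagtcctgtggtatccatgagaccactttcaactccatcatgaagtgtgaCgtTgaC

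Gm12715 was listed with 2508 expected counts in replicate 1 and 32815 in replicate 2, or 118 and 904 TPM. In the second quantification the same pseudogene had 32 and 41898 counts. The Actg1 log2 ratio, replicate 2 over replicate 1, was -0.17, and it was 0.08 when the counts of Gm12715 were added to Actg1, so its sign depended on where those reads were placed. With the pseudogene counted as gamma-actin, the level was 2991 and 3219 TPM, and the Actb share was 75.1% and 74.4%. Which of these loci gave the reads was not tested. Within Actg1, the transcript Actg1-204, which starts at base 125 of Actg1-202, took 0 counts in replicate 1 and 53117 in replicate 2.

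The serum response factor binds a sequence called the CArG box, which is classically found in actin promoters. A search for its letters, which read the same on both strands, found it in 1.63% of 32817 RefSeq promoter windows of 300 bases, 250 before and 50 after each start (GRCm38.p6). Windows were matched for 32 of the 39 genes and for none of Actb, Cotl1, Coro1b, Arpc5l, Nckap1l, Marcks and Lsp1. Of the 38 windows of those 32 genes, 2 held the letters (5.26%), those of Actg1 and Arpc4. The stretch upstream of the annotated Actg1 start is shown with the box in capitals, which begins 90 bases before the RefSeq start. A match of letters is not evidence of binding.
Actg1, chr11:120348543-120348745, minus strand: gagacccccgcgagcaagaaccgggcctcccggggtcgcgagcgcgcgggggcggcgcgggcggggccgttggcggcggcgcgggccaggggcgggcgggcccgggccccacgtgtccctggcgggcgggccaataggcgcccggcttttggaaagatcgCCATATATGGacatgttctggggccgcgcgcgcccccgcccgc

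The main monomer-holding transcripts differed between the libraries in opposite directions. Tmsb4x encodes thymosin beta 4, the chief monomer-sequestering peptide of many cells, and stood at 7327 TPM (replicate 1) and 3300 TPM (replicate 2), a mean of 5313 ± 2848 (SD, n = 2). The gene lies at chrX:167207093-167209315, minus strand. Tmsb10 encodes its relative thymosin beta 10 and had 1914 and 2994 TPM (2454 ± 763). Tmsb4x therefore held 79.3% of the pair in replicate 1 and 52.4% in replicate 2, and the level of Tmsb4x over that of Tmsb10 was 3.83 and 1.10. By counts, the log2 ratio of replicate 2 over replicate 1 was -0.90 for Tmsb4x (95% interval of counting error -0.92 to -0.89) and 0.94 for Tmsb10 (0.91 to 0.97). Their coding sequences match at 71.5% of aligned positions, and no 31-base word of the leading Tmsb4x transcript occurs in another gene. Tmsb10 shares 62.2% of its words with Gm9844, which held 46 and 74 counts. The first 60 bases are shown, with the 15 differing positions in capitals.
Tmsb4x: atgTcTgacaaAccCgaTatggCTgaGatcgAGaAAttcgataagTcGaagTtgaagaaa
Tmsb10: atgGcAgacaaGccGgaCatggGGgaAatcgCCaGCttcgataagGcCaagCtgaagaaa

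Profilin 1, which loads monomers with ATP and feeds them to growing ends, was encoded by Pfn1 at 1070 TPM (replicate 1) and 1879 TPM (replicate 2), a mean of 1474 ± 572. Its relatives Pfn3 and Pfn4 were listed at 0 and Pfn2 at 0.99 and 0.84 TPM. Cfl1, which encodes cofilin 1, the main filament-severing protein, had close levels of 1177 and 1147 TPM (1162 ± 20.9), although its count ratio was 0.47. In the second quantification Cfl1 had 1151 and 1404 TPM. The 2354-base transcript Cfl1-202 held 30.1% of the gene's counts in replicate 1 and 50.8% in replicate 2. Cotl1, a coactosin-like protein that binds filaments, had 242 and 155 TPM. The level of Actb was 7.65 and 8.16 times that of Cfl1, and 8.42 and 4.98 times that of Pfn1. In the second quantification Actb was 7.33 and 6.76 times Cfl1.

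Coronins guard or remodel filaments together with cofilin, and Wdr1 helps cofilin take them apart. Wdr1 was the highest of this group, at 295 and 495 TPM in replicates 1 and 2. In replicate 2 the transcript Wdr1-211, which is annotated as not coding, took 27.1% of the gene's TPM from 5.40% of its counts. Coro1a encodes the coronin that is best known from leukocytes, yet it was the lowest of its trio in replicate 2. The gene (chr7:126699773-126707787, minus strand) had 39.7 and 15.3 TPM (27.5 ± 17.2, SD, n = 2), from 1138 and 646 counts. Coro1b, the broadly expressed form, had 178 and 209 TPM, and Coro1c had 38.03 and 47.97 TPM. Coro1a thus held 15.5% and 5.63% of the trio's transcripts, and its log2 ratio of -1.38 (95% interval of counting error -1.52 to -1.24) was the lowest of the 39. The summed neutrophil and platelet markers were also higher in replicate 1, and their part in the Coro1a difference was not tested. A retained-intron transcript of 602 bases, Coro1a-206, held 16.0% of the gene's TPM in replicate 1 and 33.6% in replicate 2. These shares came from 52 and 75 counts, or 4.55% and 11.7% of the gene's counts.

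The Arp2/3 complex has 7 positions, filled by the actin-related proteins ARP2 and ARP3 and by ARPC1 to ARPC5, and ARPC1 and ARPC5 can each be filled by either of a pair of paralogues. Its 9 genes summed to 3979 and 3594 TPM in replicates 1 and 2 (3786 ± 273, SD, n = 2). The transcripts were not in equal amounts. Actr3, for ARP3, had 801 and 928 TPM, Arpc3 had 826 and 743 TPM and Arpc2 had 680 and 758 TPM. At the low end stood Arpc4, with 246 and 169 TPM. The highest position was ARPC3 in replicate 1, at 3.36 times the lowest, and ARP3 in replicate 2, at 5.50 times the lowest. This order depended on the measure. By counts, and in the second quantification, ARP3 was the highest in both libraries. In the second quantification ARP2 was the lowest in replicate 2. The log2 count ratio of Actr3 was -0.003.

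Actr2, for ARP2, was the position that differed most between the libraries. The gene (chr11:20062304-20112913, minus strand) had 474 and 199 TPM (337 ± 194, SD, n = 2), so that Actr3 was 1.69 times Actr2 in replicate 1 and 4.66 times in replicate 2. The count ratio of Actr2 was -1.09, and the other 8 genes of the complex lay between -0.40 and 0.36. Actr2 also has a low GC content, 40.3%, and its ratio was -0.52 once the trend of all genes with GC and length was removed. Actr3 shares 62.1% of its 31-base words with the pseudogene Gm8822, which held 123 and 205 counts, or 0.286% and 0.323% of those of Actr3. It shares 8.21% with the pseudogene Gm15899, which held 237 and 33 counts, or 0.549% and 0.0521% of those of Actr3. In the second quantification Gm15899 had 0 counts in both libraries.

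**Figure D2:**
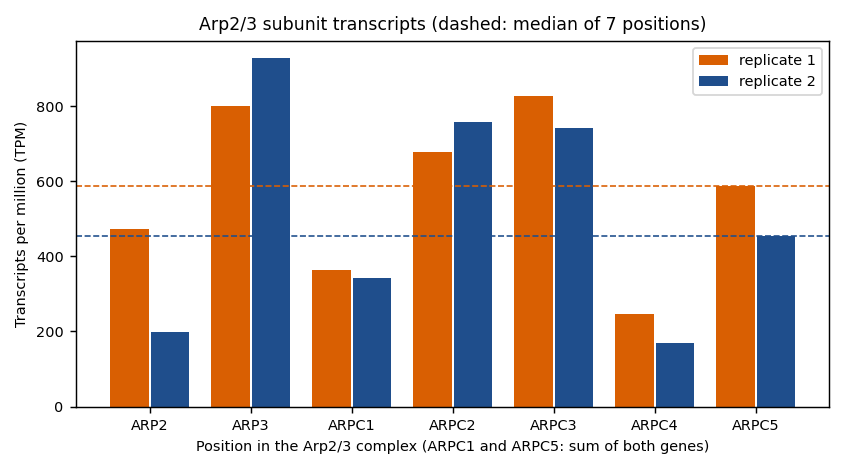
TPM of the 7 positions of the Arp2/3 complex in replicate 1 (orange bars) and replicate 2 (blue bars), with dashed lines at the median of the positions in each library. ARP2 is at 474 and 199 TPM, while ARP3 is 801 and 928 TPM and ARPC4 is the lowest position in both.

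Of the paralogues within the complex, Arpc1b prevailed over Arpc1a and Arpc5 over Arpc5l. Arpc1b, the form known from blood cells, had 332 and 315 TPM and Arpc1a 32.8 and 27.0 TPM, so that Arpc1b held 91.0% and 92.1% of the pair. Arpc5 had 567 and 440 TPM and Arpc5l 21.4 and 14.5 TPM, a share of 96.4% and 96.8%. Both shares were close in the libraries. Actr3b, the relative of Actr3, had 0.11 and 0.05 TPM.

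Barbed ends are closed by CapZ, a pair of an alpha and a beta subunit, and by the gelsolin-like protein CapG. Capg was the highest of these with 756 and 534 TPM in replicates 1 and 2 (645 ± 157, SD, n = 2). Capza2 supplied most of the alpha subunit transcripts, with 653 and 424 TPM beside 164 and 121 TPM for Capza1, a share of 79.9% and 77.7%. By counts its share was 70.1% and 59.7%, and the log2 count ratios were -0.89 for Capza2 and -0.22 for Capza1. Capza3 was listed at 0. The beta subunit gene Capzb had 345 and 403 TPM, below the summed alpha transcripts in both libraries. Gelsolin, which severs and caps, was encoded at 72.5 and 63.8 TPM (Gsn, 68.1 ± 6.17). Capza1 shares 79.6% of its words with the pseudogene Gm3608, which held 325 and 338 counts beside the 11328 and 14364 of Capza1.

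Of the 4 listed genes whose proteins switch on branching or extend filaments, Nckap1l had the highest level and Was and Wasf2 the lowest in both libraries. Nckap1l, which encodes Hem1 of the WAVE complex, had 331 and 334 TPM in replicates 1 and 2 (333 ± 2.01, SD, n = 2), and its relative Nckap1 had 2.06 and 0.41 TPM. Wasf2, which encodes WAVE2, had 28.7 and 68.2 TPM, and the other WAVE genes Wasf1 and Wasf3 were at 0.02 TPM or less. Was, which encodes the Wiskott-Aldrich syndrome protein, had 37.2 and 50.2 TPM, and its broadly expressed relative Wasl had 6.45 and 7.12 TPM. Vasp, which keeps barbed ends growing, had 182 and 101 TPM. Its relative Evl was higher by TPM, at 312 and 397 TPM, so Vasp held 36.9% and 20.3% of the Ena/VASP transcripts. By counts the Vasp share was 53.8% and 33.7%. In replicate 1 Vasp had more counts than Evl, 8590 beside 7352.

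Bundling, crosslinking and membrane-linking genes formed the second largest share, with 7872 and 7656 TPM in sum over 10 genes. Vim, the intermediate filament gene, led them with 2551 and 1935 TPM (2243 ± 436, SD, n = 2). Its retained-intron transcript Vim-203 held 28.5% and 33.1% of the gene's TPM from 5.29% and 6.88% of its counts. Lcp1, which encodes the leukocyte bundling protein L-plastin, had 1142 and 1424 TPM and held 99.6% of the plastin transcripts in both libraries. Marcksl1, a relative of the kinase substrate MARCKS that ties filaments to the membrane, had 1241 and 1584 TPM, and Marcks had 343 and 276 TPM. Msn, which encodes moesin, a linker of filaments to membrane proteins, had 571 and 856 TPM, with Ezr at 77.3 and 101 TPM and Rdx at 55.9 and 39.5 TPM.

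Plek encodes pleckstrin, a kinase substrate known from platelets and leukocytes, and had 1549 and 837 TPM. Its log2 count ratio was -0.72, and -0.33 with the GC and length trend removed. Platelet markers summed to 771 and 109 TPM, and their part in the Plek difference was not tested. Lsp1, a filament-binding protein of leukocytes (chr7:142460809-142494867, plus strand), went the other way, with 69.1 and 177 TPM (123 ± 76.0) and a ratio of 1.54 (95% interval of counting error 1.47 to 1.60), the highest of the 39. Fscn1, which encodes the bundler fascin, was among the lowest at 35.4 and 30.1 TPM. Flna, a crosslinker, had 249 and 240 TPM, whereas its log2 count ratio was -0.48. In replicate 1 the 738-base transcript Flna-215, annotated as not coding, held 26.8% of the gene's TPM from 2.53% of its counts. In the second quantification Flna had 159 and 183 TPM.

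In 19 paralogue families, 1 gene of each was followed as a share of the family's TPM. That gene was chosen with earlier results known, so the shares are a description. It held more than 90% in both libraries in 6 of the 10 pairs and in 5 of the 9 larger families. In the pairs the remaining shares ran down to the 52.4% of Tmsb4x in replicate 2. In the larger families it held more than 50% in both libraries in 7 of 9, and the others were Coro1a and Vasp, described above. Over all 19 families, the gene followed held more than 50% in both libraries in 17, by TPM and by counts. The share of Tmsb4x differed most between the libraries.

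**Figure D3:**
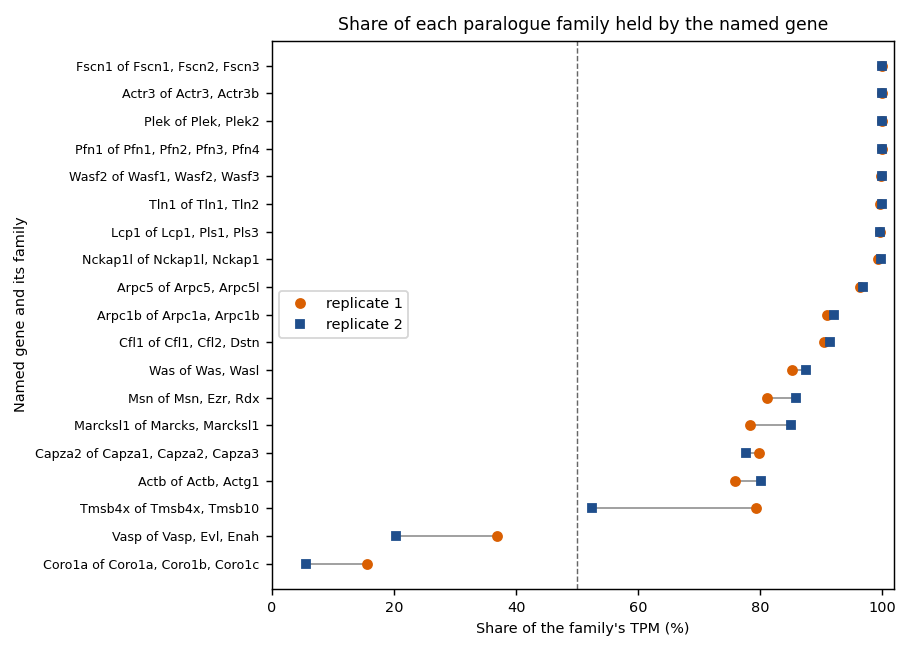
Share of each family's TPM held by the named gene, in percent, in replicate 1 (orange circles) and replicate 2 (blue squares); the dashed line marks 50%. Coro1a and Vasp lie left of the line in both libraries, and Tmsb4x is at 79.3% and 52.4%.

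How far the libraries differed was described from counts, as the log2 ratio of replicate 2 over replicate 1 after scaling the library sizes, and a gene was called past 1.5-fold. With 1 library on each side there is no test and no p-value. All 39 genes passed the filter on low counts. Of the 39, 13 were called, or 33.3%, and the background was 35.8% of 12226 genes, so the share called among the actin genes was near that of all genes. The 7 that were higher in replicate 2 (background 16.7%) were Lsp1, Pfn1, Tmsb10, Msn, Wasf2, Was and Wdr1, with ratios from 1.54 down to 0.61. The 6 that were higher in replicate 1 (background 19.1%) were Coro1a, Actr2, Tmsb4x, Capza2, Plek and Vasp, with ratios from -1.38 to -0.64. Just past the line stood Wdr1 (0.61), Was (0.62) and Vasp (-0.64), and just short of it stood Marcksl1 (0.54). Summed neutrophil, platelet and dendritic cell markers were higher in replicate 1. Summed endothelial markers and T and NK cell markers were higher in replicate 2. The part of these markers in the 13 differences was not tested. The median ratio was 0.01 over the 39 genes and -0.01 over all genes.

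**Figure D4:**
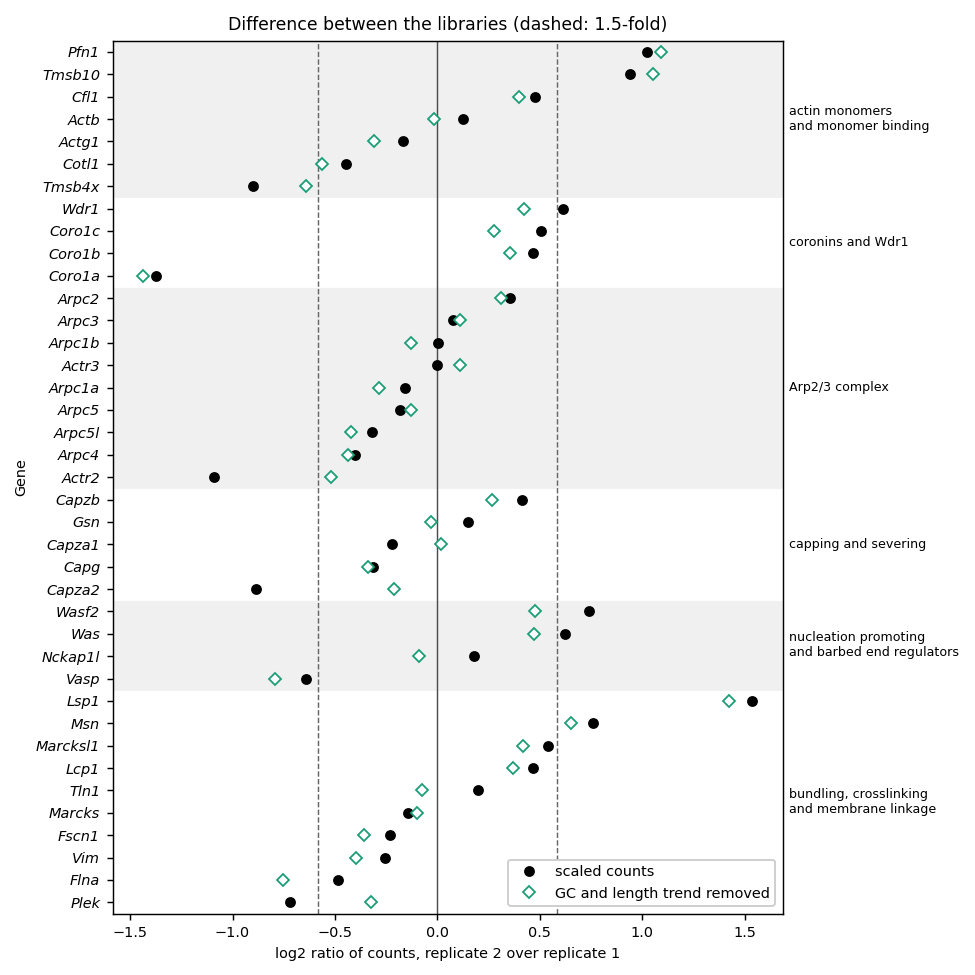
Log2 ratio of counts, replicate 2 over replicate 1, for each gene (black circles) and after removal of the trend with GC content and length over all genes (open green diamonds); dashed lines mark 1.5-fold. Lsp1 and Coro1a lie farthest out by either measure, and Actr2 and Capza2 move inside the lines when the trend is removed.

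Ratios also ran with base composition. Over all genes their correlation with GC content was positive (Pearson r = 0.32 across 12217 genes, which are not independent replicates). With all genes split into 10 groups by GC content, the median ratio rose from -0.70 in the lowest group to 0.19 in group 8. It was 0.11 in the highest group. Across the 39 genes r was 0.30 and Spearman's rank correlation 0.21. The 10 genes under 48% GC had a median ratio of -0.20, and the 29 others 0.15. After that trend with GC and length was taken out, 8 genes were past 1.5-fold (background 29.7%), 4 higher in replicate 2 (background 14.4%) and 4 higher in replicate 1 (background 15.3%). Wdr1, Was, Wasf2, Actr2, Capza2 and Plek were then within it and Flna was past it, at -0.75. At 2-fold, 4 genes were called (background 13.2%), namely Lsp1 and Pfn1 higher in replicate 2 (background 5.25%) and Coro1a and Actr2 higher in replicate 1 (background 7.94%). The count was 13 with DESeq2 size factors (background 36.1%), with no filter on low counts (46.1%) and in the second quantification (36.3%), and 14 on the log2(TPM + 1) scale (35.1%). All 13 kept their sign in the 5 other ways of computing the ratio, and 6 stayed past 1.5-fold in all of them: Lsp1, Pfn1, Tmsb10, Msn, Coro1a and Tmsb4x.

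For several genes the level depended on which transcripts the reads were assigned to. Of the 37 genes with more than 1 annotated transcript, 32 had the same leading transcript in both libraries (86.5%, beside 82.8% of 8885 genes in all). In the second quantification 29 of the 37 did, and no share over all genes is given for it. There Capzb was led by Capzb-204 in replicate 1 (91.4% of TPM) and by Capzb-201 in replicate 2 (55.6%). Tln1 encodes talin 1, which couples integrins to filaments, and its level was 122 and 297 TPM in replicates 1 and 2, whereas its log2 count ratio was 0.20. In replicate 2 the full-length Tln1-201 held 94.3% of the gene's counts but 36.9% of its TPM. Tln1-204, an annotated processed transcript of 283 bases, held 36.4% of the TPM from 266 counts. At 1 fixed length per gene, the level of Tln1 was 174 and 177 TPM. That length was the mean of the gene's effective lengths in the 2 libraries, here 7504 and 3190 bases. It therefore still carries the short-transcript assignment of replicate 2.

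Wasf2 followed the same course in part. The shorter coding transcript Wasf2-202 held 0.77% of its TPM in replicate 1 and 61.9% in replicate 2, with 11 and 3456 counts. At a fixed length set in the same way, with the same limit, Wasf2 stood at 35.7 and 52.9 TPM. In Flna the leading transcript was Flna-202 in replicate 1 (48.6% of TPM) and in replicate 2 Flna-206, annotated as a target of nonsense-mediated decay, with 46.2% of TPM from 6.53% of the counts. Actr3-205, of 667 bases, held 0.11% of the TPM of Actr3 in replicate 1 and 31.4% in replicate 2. For Capza2 the leading transcript was Capza2-201 in replicate 1 (66.9% and 46.1% of TPM) and the 517-base Capza2-206 in replicate 2 (29.3% and 52.8%). For Lcp1 it was Lcp1-209 in replicate 1 (52.4% and 28.9%) and Lcp1-206, a coding transcript of similar length, in replicate 2 (45.8% and 69.6%). For Fscn1 it was Fscn1-201 in replicate 1 (58.8% and 32.4%) and Fscn1-207 in replicate 2 (23.2% and 43.4%).

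Transcripts under 1000 bases held over 20% of the TPM of 8 genes in replicate 1 and of 13 genes in replicate 2, among the 32 that have both shorter and longer transcripts. Over 7343 genes of that kind the share was 28.0% and 34.5%. The short-transcript share was higher in replicate 2 for 15 of the 32 genes in the first quantification (46.9%, beside 46.1% of the 7343 genes) and for 24 of 32 in the second (75%, beside 59.1%).

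**Figure D5:**
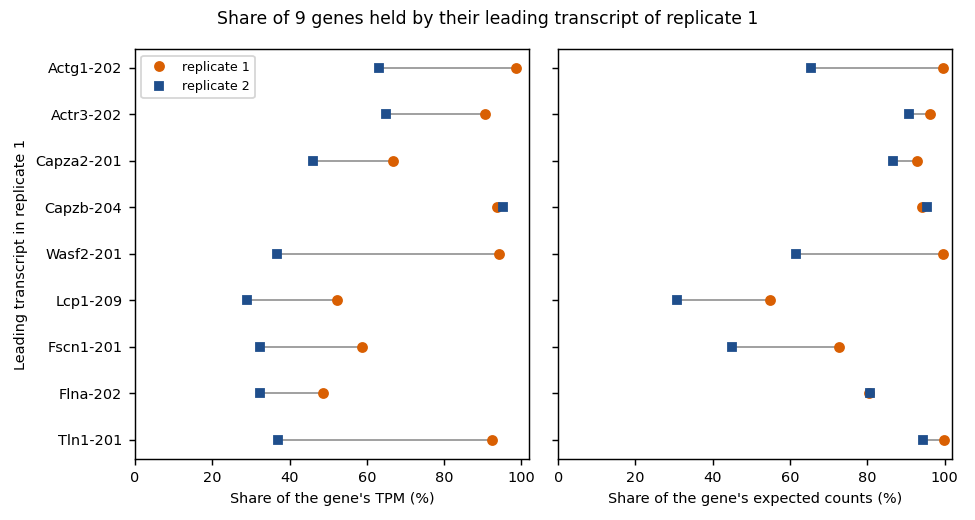
Share of each gene held by the transcript that led it in replicate 1, as percent of the gene's TPM (left) and of its expected counts (right), in replicate 1 (orange circles) and replicate 2 (blue squares). Shown are Actg1 and the 8 genes whose leading transcript differs between libraries or quantifications; Tln1-201 is at 36.9% of TPM but 94.3% of counts in replicate 2.

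Other genes of the actin pathways were read from 7 lists of 123 genes, of which 80 reached 1 TPM in both libraries. Of the 94 that passed the count filter, 18 were higher in replicate 2 (background 16.7%) and 6 higher in replicate 1 (background 19.1%), or 25.5% in all beside the background of 35.8%. After removal of the GC and length trend the counts were 13 (background 14.4%) and 8 (background 15.3%). WAVE and WASP partners were led by Hcls1, a leukocyte cortactin relative, with 325 and 441 TPM, and by Abi1, with 202 and 290 TPM, and 13 of 14 reached 1 TPM in both libraries. Of the 13 partners that passed the count filter, 5 were higher in replicate 2 (background 16.7%) and 1 in replicate 1 (19.1%), and after removal of the trend 2 (14.4%) and 1 (15.3%). Of the formins, which build unbranched filaments, 8 of 13 reached 1 TPM in both libraries and none reached 100 TPM in both. Diaph1 was the highest at 43.3 and 58.9 TPM, then Fmnl2 at 42.5 and 54.2 TPM. Myosins and tropomyosins were led by Myl6, with 1436 and 882 TPM, and by Tpm3, with 636 and 907 TPM. Of the adhesion adaptors, 18 of 19 reached 1 TPM, with Tagln2 at 713 and 724 TPM and Zyx, which encodes zyxin, at 300 and 572 TPM. Cap1, which recycles monomers after cofilin, had 419 and 518 TPM, and Aif1, the macrophage protein also called Iba1, had 154 and 85.2 TPM. Of the 6 genes for serum response factor and its co-activators, 3 were higher in replicate 2 (background 16.7%), namely Srf, Mrtfa and Mrtfb, and none in replicate 1 (background 19.1%). These genes were singled out after their values were seen. Mrtfa had 9.95 and 19.9 TPM and Srf 6.12 and 20.9 TPM, with count ratios of 1.18 and 1.30. Over the same libraries the Actb ratio was 0.12, and a link between these ratios was not tested.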

How the data were processed

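Polyadenylated RNA of 1 group of stimulated mouse macrophages was measured in 2 libraries. The authors deposited a gene table and 2 transcript tables per library on mm10 with GENCODE M21, per the file headers and accompanying notes. For the aligner, the quantifiers, their versions and the use of strand: not given in the sources used here. The column layouts are those of RSEM and, for the second quantification, kallisto. Deposited expected counts are estimated reads per gene without normalization, and their values can be fractional. The deposited TPM values allow for transcript length and sum to the same total in each library. Deposited FPKM values entered 1 alternative. The percent column the authors deposited is each transcript's share of its gene's TPM.

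Spike-in, phiX and tRNA rows, with 0.132% and 0.0882% of expected counts, were left out. Expected counts were rounded, filtered with filterByExpr and scaled by TMM (edgeR 4.0.16, R 4.3.3), and log2 ratios used a prior count of 2. The 1.5-fold line stands in for a test, and 95% intervals are exact binomial and cover counting error only. Replicates share a donor record, so their SD (n = 2) is the spread between 2 biosamples. The GC and length trend was a loess fit (span 0.3) over all genes. The ratio script was tested on simulated data. Coding sequences, shared 31-base words and alignments (Biopython 1.88) came from GENCODE M21, promoters from RefSeq (GRCm38.p6). Where a symbol had 2 gene rows the higher was used. All 39 genes could be named, and from each other list the 2 highest by mean TPM; Srf with its co-activators, marker genes, pseudogenes and some transcripts were picked after their values were seen. Some listed genes and 1 gene family are not reported here. The genes and lists were chosen with earlier results of these data known.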

Additional observations from a re-analysis of the deposited data

How the results depend on the processing

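With 1 group and 2 libraries, no value here has a test, and the labels do not say whether the cultures were separate. Reads shared with pseudogenes limit Actg1. The choice between transcripts of different length limits the TPM of Actb, Tln1, Wasf2, Flna, Actr3, Capza2, Wdr1 and Cfl1. The log2(TPM + 1) ratios have a median over all genes of -0.12, so the 14 calls on that scale include that shift. No paired analysis was possible because there is only 1 group.

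Of 281 values under alternatives other than leaving out a library, 131 stayed within the spread between the libraries (for a ratio its counting interval, for a count of genes 1.5 times) and 150 moved more. No value past 1.5-fold changed sign, whereas some smaller ratios did, such as that of Actb, 0.12 as measured and -0.02 after removal of the GC and length trend. The median TPM over the 39 genes was 389 in the second quantification, 408 when TPM was rescaled over nuclear protein-coding genes and 221 as FPKM. Their share of TPM was 4.45% after that rescaling. After removal of the GC and length trend 8 genes were past 1.5-fold, 4 of them higher in replicate 2. At the 2-fold threshold 4 were called, 2 in each direction. The highest over the lowest Arp2/3 position was 8.61-fold in expected counts, which are not scaled to length, and 4.43-fold in TPM (mean of both libraries).

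Leaving out replicate 1 or replicate 2 gives the other library's own value, which says nothing about stability: it left 39 genes at 1 TPM, 30 to 31 at 100 TPM, 9 to 10 at 1000 TPM, a median of 334 to 343 TPM, a share of 3.53% to 3.86%, 17 families led by the named gene and an Arp2/3 span of 3.36 to 5.50. Fixed lengths per gene, the 48% GC line and the addition of Gm12715 to Actg1 were chosen after seeing the data.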

Other observations

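Of the 39 genes, 7 lie on chromosome 5. Actb and Fscn1 are neighbours there, 53589 bases apart with no protein-coding gene between them, and their mean levels differ 281-fold. Arpc1a and Arpc1b lie 5454 bases apart on the same chromosome, with no protein-coding gene between them and a 10.8-fold difference. Capg and Tmsb10 on chromosome 6 are 394364 bases apart with 5 protein-coding genes between them, and their mean levels differ 3.80-fold.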
